A study of Arabidopsis thaliana with 42 samples.

Results

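The transcripts described here were those lowest in the inflorescence apices of both ap1-15 and ap2-6, mutants of the Arabidopsis thaliana floral regulators APETALA1 (AP1) and APETALA2 (AP2). They were selected on measured values. For each probe set, the mean log2(signal + 8) of each group was taken over 3 arrays. A probe set was kept when the higher of ap1-15 and ap2-6 lay at least 0.5 below the lowest of Col-0, clv3-7, lfy-12, ap3-6, ag-12 and ufo-1, and its Col-0 inflorescence mean signal was above 20. Of 22746 probe sets, 14013 had a Col-0 mean above 20 and 53 met both conditions. RXF26 also met them, with a gap of 2.68, and was left out by name, as were scpl35 and STOMAGEN, which did not meet them. Of the 53, 22 were annotated to exactly 1 gene, 1 to a pair of genes (CYP71B20 and CYP71B19) and 30 to none, so the last are given by probe set number. The 22 genes lay on chromosomes 1 (4 genes), 2 (4), 3 (4), 4 (4) and 5 (6), and the annotation gave each by locus name.

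The series comprised 42 Affymetrix arrays of shoot and stem tissue, 3 for each of 14 groups. Inflorescence apices after bolting were taken from wild-type Col-0 and from 7 mutants in the Col-0 background: the A-class mutants ap1-15 and ap2-6, the B-class mutant ap3-6, the C-class mutant ag-12, the meristem identity mutants lfy-12 and ufo-1, and clv3-7. The other 6 groups were Col-0 hypocotyl, vegetative shoot apex, vegetative apex with young leaves, shoot apex at the transition before bolting, second stem internode and first node. Light was continuous, the substrate was soil and the temperature and humidity were shared by the groups. The labels give no plant age. Nothing in the labels tells whether the arrays of a group hold RNA of different plants. The p-values therefore cover the variation among these arrays alone, and that variation may be technical. Nor do the labels give the oldest flower in a mutant apex sample. In whole apices, fewer cells of a type and less RNA per cell cannot be told apart. AP1 and AP2 themselves are not analysed here.

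AP1 and AP2 encode transcription factors of the A function, which specifies sepals and, with B genes such as AP3, petals. AG, the C-function gene, specifies stamens and carpels, and ag flowers repeat sepals and petals. LFY and UFO act earlier, in making a meristem a flower and in switching on B genes, and CLV3 is the signal that restricts the stem cell pool, so that clv3 flowers bear extra organs. Sepals and petals are covered by an epidermis with a sculpted cuticle, made from cutin and waxes by acyltransferases, oxidoreductases, lipase-like esterases and related enzymes.

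Array medians lay between 36.2 and 45.7 signal units, and no pair of arrays of the same group held identical values. Pairs from different groups were not compared in this way. On the deposited scale the signal is the brightness of a probe set, scaled by array, and compares 1 probe set between samples, not probe sets with each other. The bacterial dap control read 7.72 to 7.88 in mean log2(signal + 8) on the Col-0 inflorescence arrays and 3.13 to 3.45 on the mutant apex arrays. The thr control read 6.29 to 6.43 against 3.23 to 3.59. With Col-0 taken out of the 6 reference groups, but its mean still required to be above 20, 60 probe sets met the selection. They had to include all 53, since leaving out a group can only widen the gap. The part of the control difference in the selection was therefore not tested. The log2 ratio of 3′ to 5′ GAPDH probe sets ran from -0.10 to 0.01 in ap1-15, 0.00 to 0.10 in ap2-6, -0.02 to 0.48 in lfy-12 and 0.17 to 0.53 in the other 5 genotypes. The same ratio for actin ran from 1.93 to 2.07 in ap1-15, 2.07 to 2.35 in ap2-6 and 1.89 to 2.63 in the other 6, and that for ubiquitin from 1.21 to 1.37, 1.09 to 1.19 and 0.96 to 1.65. Of the 3 ratios, that of GAPDH was lowest in the selected pair of mutants, overlapping lfy-12, and those of actin and ubiquitin lay within the range of the other genotypes. The part of RNA quality in the result was not tested.

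As the selection required, the 53 transcripts were low in both mutants, with a median over the transcripts of 22.0 signal units in ap1-15 and 23.2 in ap2-6, against 65.2 in Col-0. The median was 50.7 in clv3-7, 90.9 in lfy-12, 70.9 in ap3-6, 101.9 in ag-12 and 65.7 in ufo-1. The gap ran from 0.50 to 3.26 on the log2(signal + 8) scale with a median of 0.69. It was at least 1 for 16 transcripts and at least 2 for 5. The Col-0 level was a median 2.64-fold that of ap1-15 (1.46 to 36.5) and 2.65-fold that of ap2-6 (1.47 to 17.5) on that scale, which understates the fold of dim probe sets. For 48 of the 53, all 6 ap1-15 and ap2-6 arrays lay below all 18 others. The 5 that overlapped were AT3G11930, 259417_at, 252983_at, 264071_at and 246209_at. Both mutant means were under 8 signal units for 9 transcripts, a level at which the offset compresses any difference between the mutants.

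**Figure D1:**
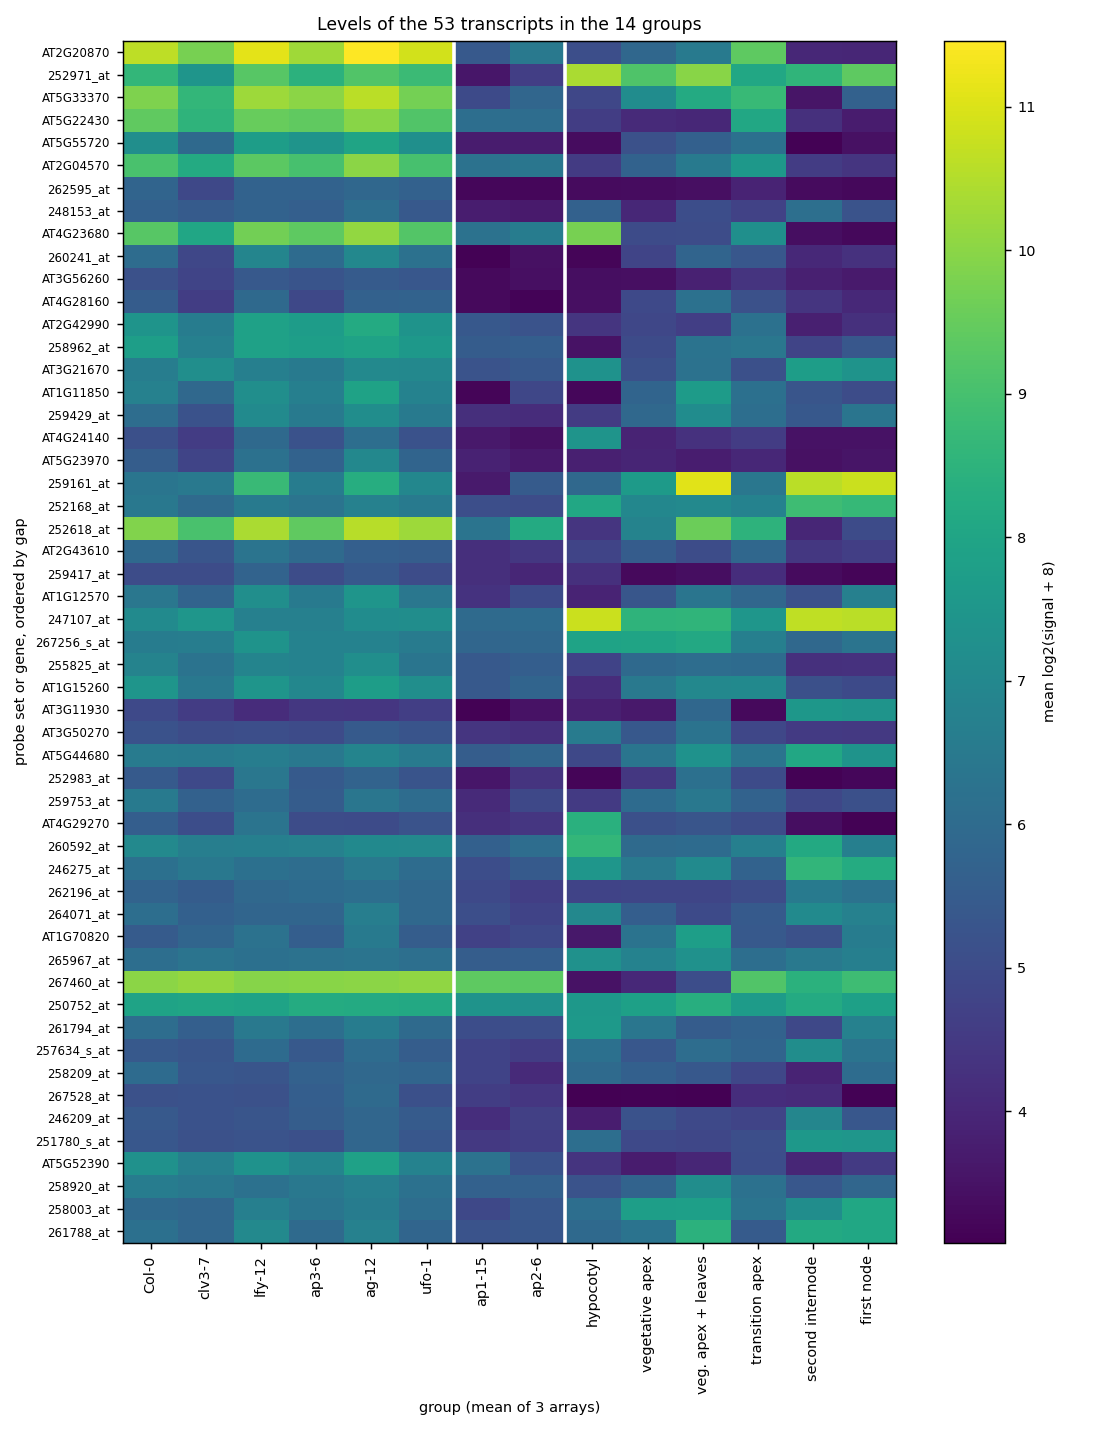
Mean log2(signal + 8) over 3 arrays (colour) of the 53 transcripts (rows, ordered by gap) in the 14 groups (columns). The ap1-15 and ap2-6 columns between the white lines are dark in every row relative to the 6 inflorescence groups to their left, as the selection required, while the Col-0 shoot samples on the right differ from row to row.

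Grouped by what the encoded proteins are known or predicted to do, a grouping made after the values were seen, 4 of the 22 genes encode cell wall proteins. They included the transcript with the largest gap. AT2G20870, a putative cell wall protein, read 1625, 1549.9 and 1501 on the 3 Col-0 arrays, 38.2, 31.6 and 35.1 in ap1-15 and 84.7, 72.4 and 88.2 in ap2-6. It read 761, 826 and 978 in clv3-7, 2321, 2132 and 2212 in lfy-12, 1172, 1259 and 1201 in ap3-6, 2703, 2791 and 2936 in ag-12 and 1788, 2059 and 1869.8 in ufo-1. Both mutants lay below every array of the other 6 genotypes, with ap1-15 below ap2-6, and ag-12 was the highest of all 8 genotypes. AT5G22430, of the pollen Ole e 1 and extensin family of secreted proteins, read 679.5, 688 and 672 in Col-0, 54.4, 68.4 and 59.6 in ap1-15 and 59.8, 59.7 and 60.7 in ap2-6. The ap1-15 and ap2-6 arrays overlapped each other, and the Col-0 level was 10.03-fold that of ap1-15 and 10.1-fold that of ap2-6 on the log2(signal + 8) scale. AT5G55720, a pectate lyase-like protein of a family that cuts pectin, read 139, 129 and 153 in Col-0, 9.27, 1.13 and 6.602 in ap1-15 and 5.298, 3.67 and 6.82 in ap2-6, so that no array of the pair of mutants passed 9.27. AT4G28160, a hydroxyproline-rich glycoprotein, read 39.1, 40.7 and 34.3 in Col-0, 1.84, 2.22 and 1.43 in ap1-15 and 1.33, 0.9203 and 0.837 in ap2-6, and no mutant array passed 2.22.

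Another 7 genes belong to enzyme families that act on lipids and esters, and their gaps ran from 0.62 to 2.80. AT5G33370, a GDSL lipase/esterase needed for the cuticular ridges of sepals, read 917, 920.5 and 874 in Col-0, 18.5, 18.6 and 35.6 in ap1-15 and 52.4, 41.1 and 54.9 in ap2-6. The other genotypes were all higher than both mutants: 378, 404 and 386 in clv3-7, 1222, 1162 and 1206 in lfy-12, 1025, 997 and 1004 in ap3-6, 1473, 1671 and 1502 in ag-12 and 877, 768 and 859 in ufo-1. A pair of further GDSL lipases shared the pattern. AT2G04570 read 492, 602 and 501 in Col-0, 72.8, 65.03 and 64.2 in ap1-15 and 77.3, 68.7 and 77.8 in ap2-6. AT2G42990 read 153, 169 and 172 in Col-0, 28.9, 40.4 and 34.2 in ap1-15 and 28.6, 33.8 and 26.9 in ap2-6. In neither gene did the mutant arrays reach the lowest Col-0 array, and ap1-15 and ap2-6 overlapped each other in both. AT4G24140, an alpha/beta hydrolase of the family of the cuticle gene BODYGUARD, read 31.8, 24.9 and 25.7 in Col-0, 3.82, 1.76 and 9.004 in ap1-15 and 0.457, 4.99 and 4.399 in ap2-6. AT1G12570, of the glucose-methanol-choline oxidoreductase family that includes a cutin-forming enzyme, read 68.9, 75.2 and 84.2 in Col-0, 12.5, 15.6 and 8.002 in ap1-15 and 19.6, 23.2 and 26.9 in ap2-6. Here the ap1-15 arrays all lay below the ap2-6 arrays. AT5G23970, an HXXXD-type acyltransferase of a family that joins acyl groups to alcohols and amines, read 40.1, 37.3 and 39.5 in Col-0, 6.31, 8.39 and 5.98 in ap1-15 and 8.08, 5.09 and 1.63 in ap2-6. AT3G50270 of the same family had a shallower step, with 25.1, 26.2 and 34.8 in Col-0, 12.1, 17.6 and 9.34 in ap1-15 and 14.04, 9.13 and 9.93 in ap2-6.

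**Figure D2:**
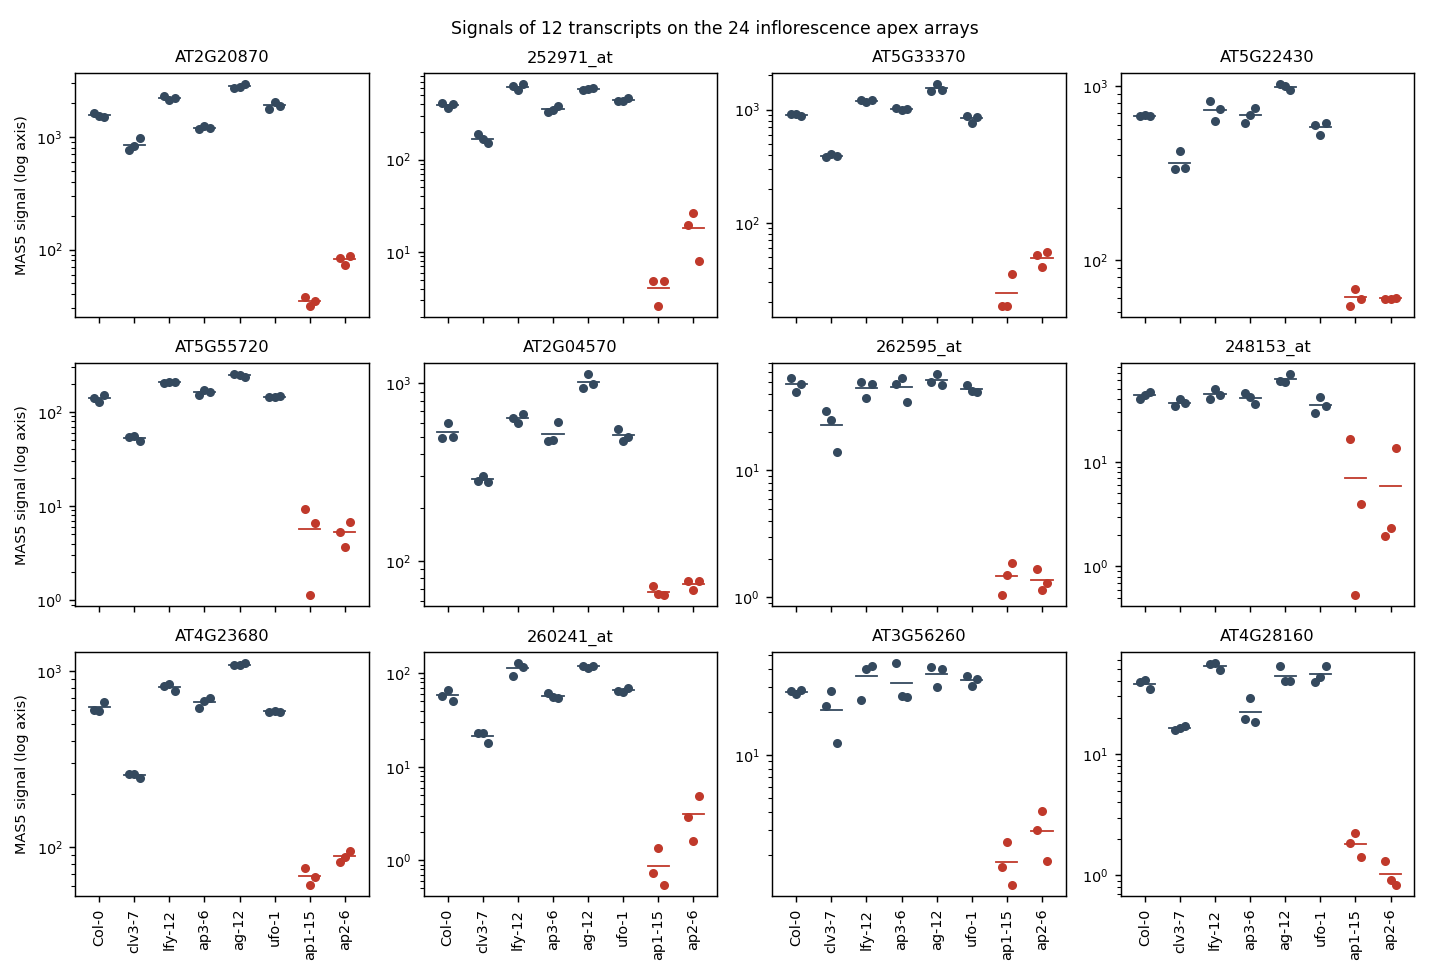
Signal on each array (points, log axis, with group means) for the 12 transcripts with the largest gaps in the 8 inflorescence apex genotypes. In each of the 12 panels all 6 ap1-15 and ap2-6 points lie below all 18 others, from AT2G20870 with a gap of 3.26 to AT4G28160 with 1.31.

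The remaining 8 genes with a known family were of mixed function, with Col-0 levels 1.71 to 8.28 times those of ap1-15. AT4G23680, of the polyketide cyclase and major latex-like protein family, read 599, 595 and 669 in Col-0, 75.6, 60.8 and 67.7 in ap1-15 and 82.2, 88.1 and 94.8 in ap2-6. AT3G21670 (NPF6.4), of the nitrate and peptide transporter family, read 85.6, 80.98 and 106 in Col-0, 26.3, 36.05 and 26.01 in ap1-15 and 30.2, 41.6 and 30.8 in ap2-6. AT5G52390, a PAR1 family protein, read 158, 158 and 144 in Col-0, 58.5, 72.7 and 72.1 in ap1-15 and 26.9, 33.04 and 26.6 in ap2-6. In these 3 genes no ap1-15 or ap2-6 array reached a Col-0 array. The other 5 were AT2G43610 of the chitinase family, AT3G11930 of the universal stress protein family, AT4G29270 of the HAD acid phosphatase family, AT5G44680 of the DNA glycosylase family and AT1G70820, a putative phosphoglucomutase. AT3G11930 read 1.05, 0.927 and 0.625 in ap1-15 and 1.25, 1.37 and 8.24 in ap2-6 against 19.9, 21.7 and 25.9 in Col-0. Its highest ap2-6 array overlapped the lfy-12 and ap3-6 arrays. No family is given here for AT3G56260, AT1G11850 and AT1G15260. AT3G56260 read 27.7, 26.5 and 28.6 in Col-0, 1.65, 2.46 and 1.24 in ap1-15 and 2.97, 4.03 and 1.798 in ap2-6.

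The 31 probe sets with no single gene had gaps of 0.50 to 2.82. The largest, 252971_at, read 411, 365 and 402 in Col-0, 4.83, 2.62 and 4.804 in ap1-15 and 19.7, 26.3 and 8.09 in ap2-6. Its lowest array among all 36 outside the pair of mutants read 150.5, against a highest of 26.3 within them. Across the whole series, 9 of the 53 transcripts were lower on the 6 mutant arrays than on each of the other 36 arrays, and 27 of all 22746 probe sets were. The selection used the inflorescence arrays among these and so raises the share in the 53, which is no independent evidence. Apart from 252971_at the separation was narrow, with the ratio of those outer values at most 1.60 (252168_at). Some of the probe sets were dim throughout the mutants. 262595_at read 53.5, 41.8 and 48.4 in Col-0, 1.04, 1.49 and 1.86 in ap1-15 and 1.68, 1.15 and 1.31 in ap2-6. It was also low in the 6 Col-0 shoot samples, with at most 14.6, on a transition apex array. 248153_at read 40.03, 43.7 and 46.2 in Col-0, 16.3, 0.5302 and 3.96 in ap1-15 and 1.96, 2.33 and 13.4 in ap2-6, with 1 higher array in each mutant. 260241_at read 57.4, 66.2 and 50.6 in Col-0, 0.739, 1.35 and 0.547 in ap1-15 and 2.93, 1.62 and 4.85 in ap2-6. At the threshold, the last probe sets inside were 258920_at (gap 0.505), 258003_at (0.504) and 261788_at (0.5004), and the first outside were 257272_at (0.498), AT3G28220 (0.491) and 245701_at (0.490).

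The levels left in ap1-15 and in ap2-6 were set side by side in a limma fit over the 24 inflorescence arrays and 14627 probe sets, with Benjamini-Hochberg adjustment over all of them. The selection required the higher of these group means to be low, which limits how far the pair can differ, so the calls describe the selected transcripts and are no independent evidence. Of 52 transcripts tested, 15 were lower in ap1-15 and 3 were higher, and 34 were not called. The last include 8 of the 9 with both means under 8 signal units, which passed the filter on low signals through other genotypes. Over all probe sets 9.61% were lower and 9.44% higher. The median difference was -0.09 over the transcripts and 0.00 over all. 252618_at read 73.9, 70.6 and 71.3 in ap1-15, 303, 269.6 and 284 in ap2-6 and 927, 923 and 945 in Col-0, a difference between the mutants of -1.87 ± 0.06 (SE). 259161_at read 6.75, 2.23 and 6.67 in ap1-15 and 38.5, 37.5 and 33.96 in ap2-6, a difference of -1.78 ± 0.11 (SE). AT1G11850 read 1.22, 0.955 and 1.34 in ap1-15 and 21.8, 16.1 and 26.1 in ap2-6, against 109, 96.3 and 101 in Col-0, a difference of -1.66 ± 0.15 (SE). In these 3, ap1-15 was below ap2-6 on all arrays, and in AT1G11850 no ap1-15 array passed 1.34. AT2G20870 (-1.06 ± 0.08), 252971_at (-1.04 ± 0.15) and AT5G33370 (-0.87 ± 0.12) were also lower in ap1-15. The 3 that were higher in ap1-15 were AT5G52390 (1.04 ± 0.09), 258209_at (0.69 ± 0.13) and 262196_at (0.30 ± 0.10). Among the GDSL lipases, AT2G04570 and AT2G42990 were not called, at -0.13 ± 0.09 and 0.17 ± 0.08.

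**Figure D3:**
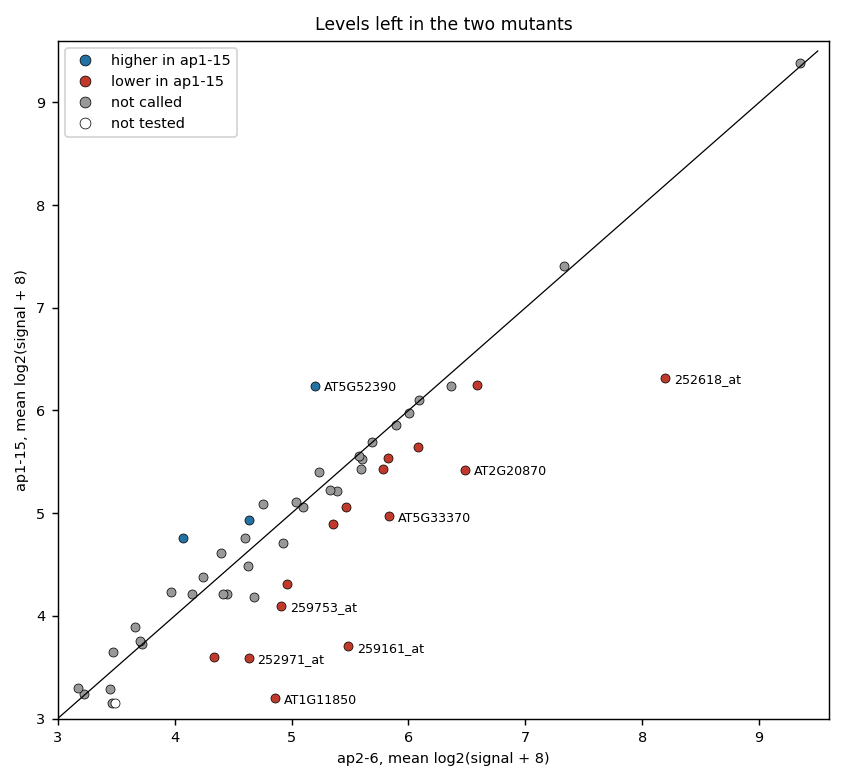
Mean log2(signal + 8) over 3 arrays in ap2-6 (x axis) and ap1-15 (y axis) for the 53 transcripts (points, coloured by the limma call), with the line of equal levels. The 15 transcripts called lower in ap1-15 lie below the line and the 3 called higher, AT5G52390 among them, lie above it.

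The transcripts were also compared between each of the other 5 mutants and Col-0. The selection had used the means of all these groups, holding each at least 0.5 above ap1-15 and ap2-6 and Col-0 also above 20 signal units, so the calls describe the selected transcripts and are no independent evidence. The 5 comparisons share the Col-0 arrays, which differed from the mutant arrays in the dap and thr controls. The part of that difference in each change from Col-0 was not tested beyond a change of reference. Against the mean of the other 4 of these mutants in place of Col-0, 41 transcripts were higher and 1 lower in ag-12, 4 and 36 in clv3-7, 30 and 3 in lfy-12, 2 and 13 in ap3-6, and 4 and 8 in ufo-1. With that reference, the calls in either direction over all 14627 probe sets numbered 3255 in ag-12 and 5747 in clv3-7. They numbered 2927 in lfy-12, 3826 in ap3-6 and 2478 in ufo-1. Against Col-0 the clv3-7 calls over all probe sets numbered 2793. In ag-12, whose flowers repeat sepals and petals, 33 of 52 transcripts tested rose and 1 fell, against 12.4% and 14.4% of all probe sets. The median change was 0.43 over the transcripts and -0.02 over all probe sets. For 36 of the 53, all 3 ag-12 arrays lay above all 3 Col-0 arrays, and in 36 ag-12 had the highest mean of the 6 reference genotypes (67.9%, against 14.3% of all probe sets with a Col-0 mean above 20). AT5G23970, the acyltransferase, read 124, 116 and 119 in ag-12 against 40.1, 37.3 and 39.5 in Col-0, a change of 1.44 ± 0.15 (SE). 259161_at read 306, 300.4 and 311 in ag-12 against 66.2, 76.5 and 78.1 in Col-0, a change of 1.95 ± 0.11 (SE). AT1G12570, the oxidoreductase, read 188, 143 and 173 in ag-12, a change of 1.06 ± 0.16 (SE). The ag-12 arrays lay above the Col-0 arrays in all 3. Of the 7 lipid and ester enzymes 6 rose in ag-12, and AT3G50270 was not called (0.27 ± 0.16). Of the 4 cell wall proteins 3 rose, and AT4G28160 was not called (0.18 ± 0.14). The rises included AT2G04570 (0.93 ± 0.09), AT2G20870 (0.85 ± 0.08), AT5G33370 (0.77 ± 0.12), 259429_at (1.13 ± 0.13), AT1G11850 (1.12 ± 0.15) and AT1G70820 (1.04 ± 0.13). The phosphatase AT4G29270 was the 1 that fell, from 40.3, 41.8 and 39.8 in Col-0 to 23.1, 26.2 and 22.9 in ag-12, a change of -0.60 ± 0.18 (SE).

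In clv3-7 the transcripts moved the other way. Of 52 tested, 29 fell and 2 rose, against 8.7% and 10.4% of all probe sets, with a median change of -0.49 over the transcripts and 0.01 over all. clv3-7 had the lowest mean of the 6 reference genotypes in 32 of the 53 (60.4%, against 17.3% of all probe sets with a Col-0 mean above 20), although the selection held it above ap1-15 and ap2-6. All 4 cell wall proteins and 6 of the 7 lipid and ester enzymes fell. The pectate lyase-like AT5G55720 read 54.6, 55.8 and 49.1 in clv3-7 against 139, 129 and 153 in Col-0, a change of -1.28 ± 0.14 (SE). AT4G23680 read 260.03, 259.5 and 247 in clv3-7, a change of -1.25 ± 0.07 (SE). AT5G33370, given above by array, changed by -1.20 ± 0.12 (SE). In all 3 the clv3-7 arrays lay below the Col-0 arrays and above both ap1-15 and ap2-6. 252971_at (-1.19 ± 0.15), 260241_at (-1.18 ± 0.12) and 258962_at (-1.04 ± 0.12) fell by similar amounts. The pair that rose were the transporter AT3G21670, at 169.5, 159 and 104 against 85.6, 80.98 and 106 in Col-0 (0.60 ± 0.15 (SE)), and 247107_at (0.40 ± 0.12). For AT3G21670 the lowest clv3-7 array lay just below the highest Col-0 array.

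**Figure D4:**
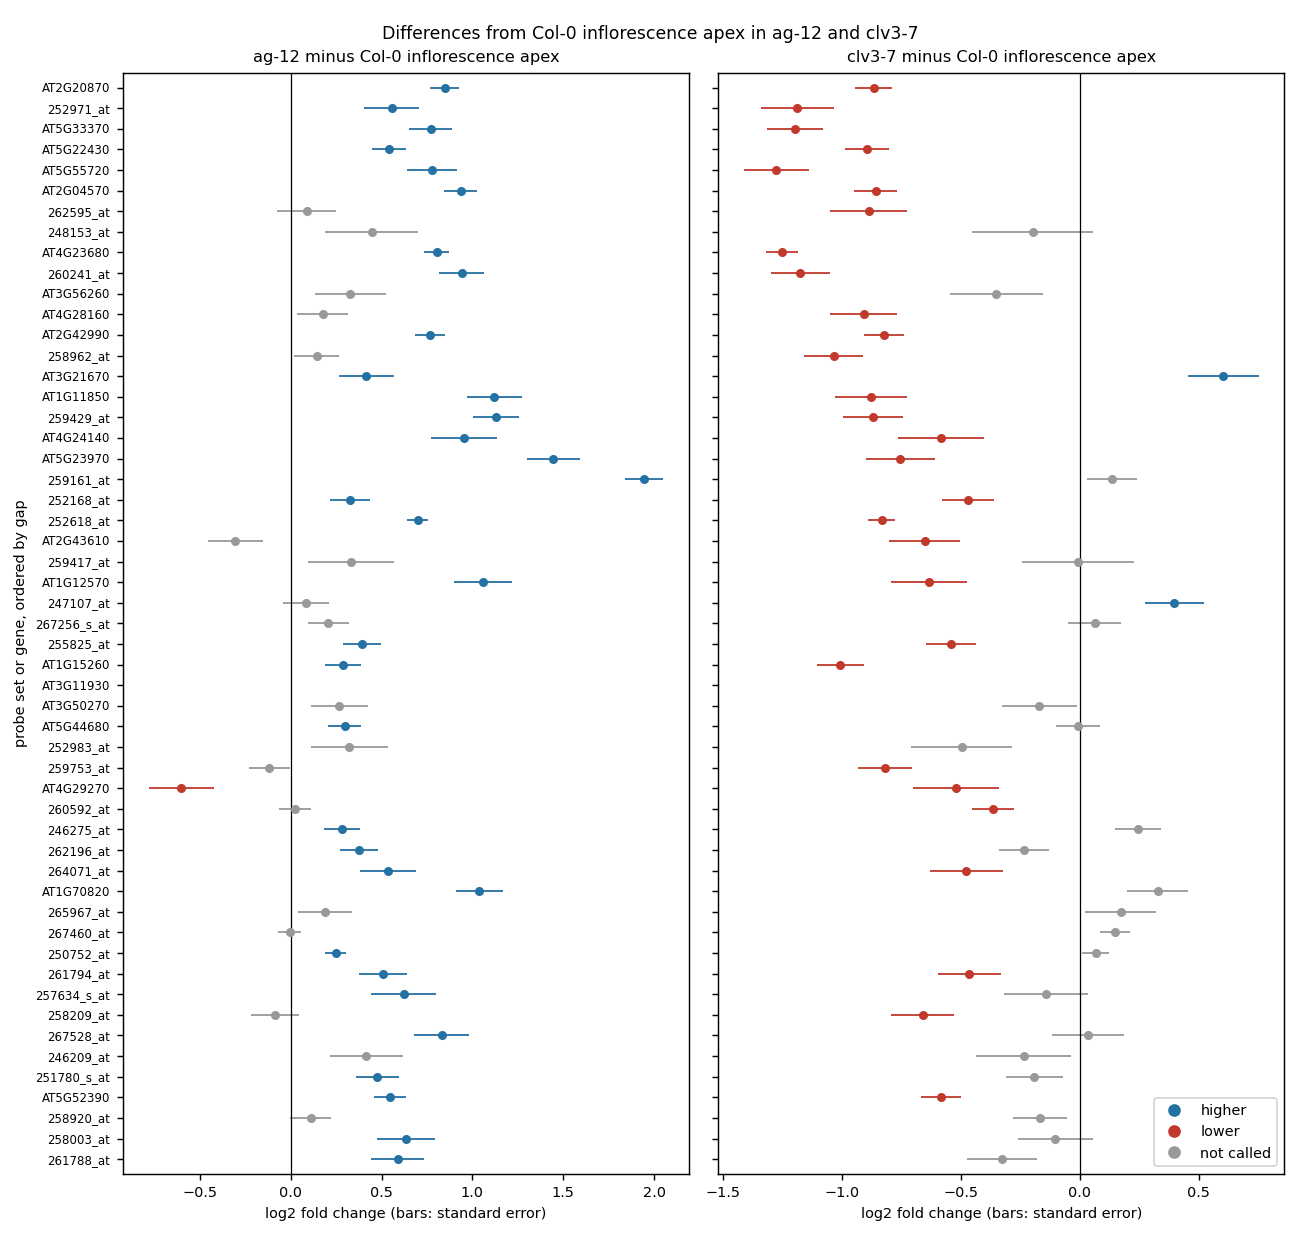
Log2 fold change against Col-0 (points; bars are standard errors, n = 3 arrays a group) of the tested transcripts, ordered by gap, in ag-12 and clv3-7, which share the Col-0 arrays. In ag-12, 33 of 52 points are called higher and 1 lower, and in clv3-7, 2 are called higher and 29 lower.

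In lfy-12, 25 of 52 transcripts rose and 5 fell, against 13.3% and 13.7% of all probe sets, with a median change of 0.26 over the transcripts and -0.03 over all. Again 6 of the 7 lipid and ester enzymes and 3 of the 4 cell wall proteins rose, and none of them was called lower. 259161_at read 426, 394 and 459 in lfy-12, a change of 2.41 ± 0.11 (SE), and stood well above its Col-0 arrays. AT1G12570 read 142, 116 and 169, a change of 0.83 ± 0.16 (SE), and 259429_at, 252983_at, 260241_at and 261788_at rose by 1.00 ± 0.13, 0.96 ± 0.21, 0.87 ± 0.12 and 0.83 ± 0.15. 258209_at (-0.72 ± 0.13) and 259753_at (-0.47 ± 0.11) were among the 5 that fell. In the B-class mutant ap3-6, 4 of 52 rose and 9 fell, against 11.3% and 12.5% of all probe sets, with a median change of -0.02 over the transcripts and -0.01 over all. 259753_at read 37.4, 40.8 and 35.1 in ap3-6 against 80.1, 79.5 and 88.2 in Col-0 (-0.99 ± 0.11 (SE)), with no overlap. AT4G28160 (-0.61 ± 0.14), AT4G29270 (-0.58 ± 0.18) and AT1G15260 (-0.48 ± 0.10) also fell, and the GDSL lipase AT2G42990 rose (0.29 ± 0.08 (SE)). With each array scaled to a common median the split turned to 9 higher and 7 lower, and without ap3-6 replicate A 8 were called in all. In ufo-1, 5 of 52 rose and 4 fell, against 9.4% and 9.38% of all probe sets, with a median change of 0.01 over the transcripts and -0.03 over all. AT5G52390 read 98.9, 101 and 109 in ufo-1 against 158, 158 and 144 in Col-0 (-0.54 ± 0.09 (SE)), and 255825_at fell (-0.46 ± 0.10). 259161_at (0.63 ± 0.11), 252618_at (0.37 ± 0.06) and AT2G20870 (0.29 ± 0.08) rose. Under 5 of the other settings the ufo-1 split between rises and falls turned, under others it was even, and 5 were called in all without Col-0 replicate C.

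The Col-0 shoot samples, which the selection did not use, gave the levels of the transcripts in tissue other than the inflorescence apex. They were fitted together with limma over 18 arrays and 15882 probe sets, of which 48 were among the 53. AT5G23970, AT3G56260, 259417_at, 262595_at and 267528_at did not pass the filter on low signals there. The comparisons of the transition apex, of the apex with young leaves and of the hypocotyl share the vegetative apex arrays. The median level over the 53 was 20.02 signal units in hypocotyl, 38.3 in the vegetative apex, 65.4 in the vegetative apex with young leaves, 50.4 in the transition apex, 27.5 in the second internode and 33.7 in the first node. Of the 7 Col-0 samples, the inflorescence apex was the highest for 20 transcripts, the second internode for 11, the vegetative apex with young leaves for 11, the hypocotyl for 8 and the first node for 3. The selection set a lower bound on the inflorescence apex alone of these samples, which favours it in that count. The shares over all probe sets were not counted. The vegetative apex had a mean above both ap1-15 and ap2-6 for 38 of the 53, and the transition apex for 47. Both mutants were selected for low levels, which favours such counts, so they are no independent evidence. The matching shares of all probe sets were not counted.

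From the vegetative apex to the transition apex, 21 of 48 transcripts rose and 15 fell, against 30.4% and 23.4% of all probe sets, with a median change of 0.20 over the transcripts and 0.06 over all. Of the 7 lipid and ester enzymes 5 rose, AT3G50270 fell (-0.50 ± 0.11) and AT5G23970 was not tested. Of the 4 cell wall proteins 3 rose, and AT4G28160 was not called (0.21 ± 0.17). The other groups were mixed. Among the 31 probe sets with no single gene 9 rose and 13 fell, and among the 8 genes of other families 2 rose and 1 fell. Of the 3 genes with no family given 2 rose. AT5G22430 read 13.2, 9.29 and 5.22 in the vegetative apex and 282, 269 and 259 in the transition apex, a change of 4.04 ± 0.18 (SE), adjusted p = 3.2e-14. AT2G20870 read 58.2, 59.3 and 38.9 in the vegetative apex and 688, 637 and 669 in the transition apex, a change of 3.50 ± 0.14 (SE), adjusted p = 3.7e-15. For both, the transition apex lay far above ap1-15 and ap2-6 and below the Col-0 inflorescence. AT2G04570 read 34.7, 49.1 and 51.3 and then 186, 172 and 176, a change of 1.83 ± 0.14 (SE), adjusted p = 1.9e-10. AT5G33370 read 139.8, 138 and 129.8 and then 411, 411 and 430.1, a change of 1.57 ± 0.10 (SE), adjusted p = 6.9e-12. The vegetative apex of AT5G33370 was thus above every ap1-15 and ap2-6 array, while that of AT2G04570 was below them. 267460_at rose most, from 9.84, 6.45 and 9.53 to 587, 583 and 543 (5.13 ± 0.14 (SE), adjusted p = 3.4e-18). It read 635, 709 and 639 in ap1-15 and 622, 653 and 654 in ap2-6, below 983, 1012 and 1049 in Col-0 and above the transition apex. AT4G23680 (2.25 ± 0.15) and 252618_at (1.68 ± 0.09) rose as well. The largest falls were those of 258003_at (-1.47 ± 0.08), 267256_s_at (-1.29 ± 0.08), 259161_at (-1.24 ± 0.08), 252971_at (-1.05 ± 0.13), 247107_at (-1.03 ± 0.06) and AT1G70820 (-0.86 ± 0.14).

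Between vegetative apices taken with and without young leaves, 29 of 48 were higher with the leaves and 3 lower, against 19% and 29.2% of all probe sets, with a median difference of 0.58 over the transcripts and -0.09 over all. 259161_at read 2092, 2321 and 2027 with leaves and 177, 196 and 208 without, a difference of 3.42 ± 0.08 (SE), adjusted p = 1.2e-17. 252618_at read 739.5, 761 and 753 with leaves and 108, 109 and 101 without, a difference of 2.74 ± 0.09 (SE), adjusted p = 1.9e-15. AT1G11850 read 189, 188 and 212 with leaves and 50.4, 46.9 and 46.05 without, a difference of 1.87 ± 0.15 (SE), adjusted p = 1.2e-09. In each the sample with leaves lay above every ap1-15 and ap2-6 array, and all 3 were lower in ap1-15 than in ap2-6. Of the lipid and ester enzymes, AT5G33370 (1.03 ± 0.10), AT1G12570 (0.99 ± 0.13), AT3G50270 (0.89 ± 0.11) and AT2G04570 (0.79 ± 0.14) were higher with leaves. AT2G42990 (-0.24 ± 0.19) and AT4G24140 (0.38 ± 0.17) were not called, and AT5G23970 was not tested. The 3 lower with leaves were 261794_at (-0.86 ± 0.10), 264071_at (-0.61 ± 0.11) and the chitinase family gene AT2G43610 (-0.47 ± 0.17).

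**Figure D5:**
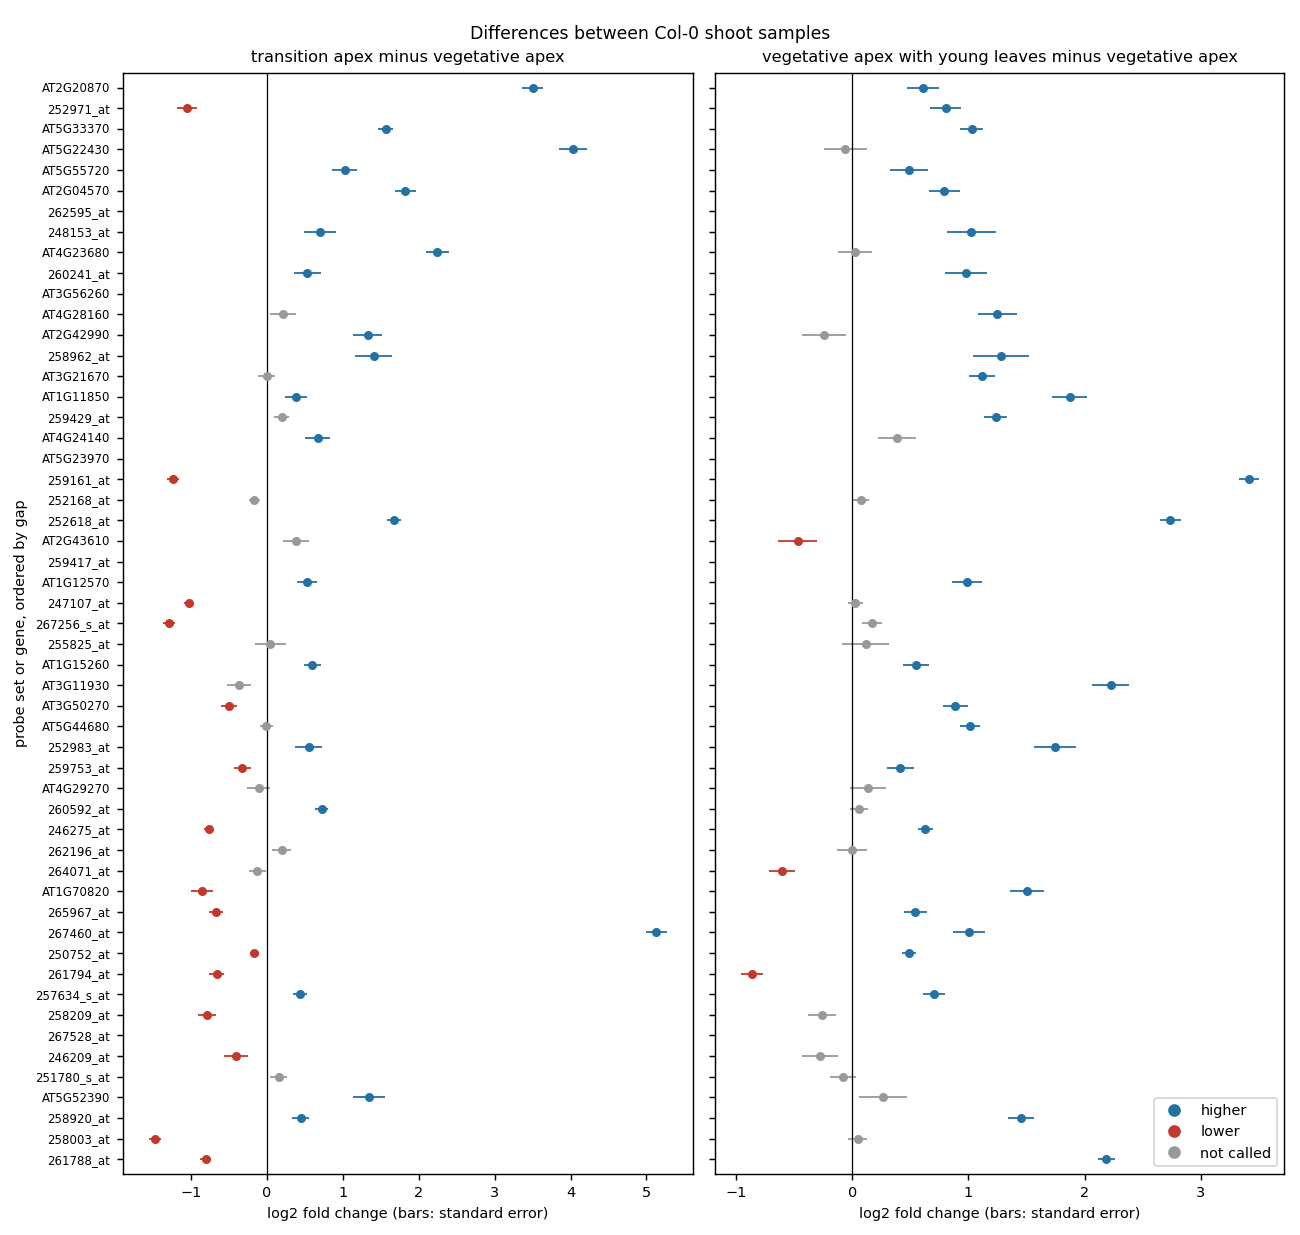
Log2 differences (points; bars are standard errors, n = 3 arrays a group) of the tested transcripts, ordered by gap, between the transition apex and the vegetative apex (left) and between the vegetative apex with and without young leaves (right), which share the vegetative apex arrays. On the left 21 of 48 are called higher and 15 lower, and on the right 29 and 3.

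In the hypocotyl, 26 of 48 transcripts were lower than in the vegetative apex and 19 higher, against 38.4% and 35.7% of all probe sets, with a median difference of -0.41 over the transcripts and -0.04 over all. AT4G23680 read 883, 864 and 794 in the hypocotyl and 25.01, 18.4 and 29.1 in the vegetative apex (4.74 ± 0.15 (SE), adjusted p = 2.8e-17). AT4G24140, the BODYGUARD family hydrolase, read 170.1, 151 and 164 in the hypocotyl and 5.78, 7.72 and 7.49 in the vegetative apex (3.50 ± 0.17 (SE), adjusted p = 3.3e-14). AT4G29270 read 336, 317 and 335 and 28.6, 24.8 and 28.9 in the same samples (3.25 ± 0.15 (SE), adjusted p = 2.8e-14). For AT4G24140 and AT4G29270 every hypocotyl array was above every inflorescence array. AT1G70820 (-2.64 ± 0.14), AT1G11850 (-2.58 ± 0.15), AT1G15260 (-2.29 ± 0.11) and AT5G33370 (-2.29 ± 0.10) were lower in the hypocotyl. Between the second internode and the first node, 11 of 48 were higher in the internode and 14 lower, against 27.5% and 30% of all probe sets, with medians of 0.01 and -0.01. AT5G33370 read 5.36, 2.99 and 3.399 in the internode and 43.5, 41.5 and 44.6 in the node (-2.11 ± 0.10 (SE), adjusted p = 3.8e-14). AT1G12570 read 24.1, 25.7 and 35.6 and 88.6, 109 and 95.2 (-1.54 ± 0.13 (SE), adjusted p = 9.8e-10). Both were higher on all 3 node arrays. 258209_at (-2.12 ± 0.12) and 261794_at (-1.89 ± 0.10) were lower in the internode, while 246209_at (1.56 ± 0.15) and AT5G44680 (0.74 ± 0.09) were higher. For 6 transcripts a stem sample was more than 5 times the Col-0 inflorescence apex: AT3G11930, with 181, 171 and 173 in the internode, was 1 of them. At the other end, 7 were under 20 signal units in all 5 shoot samples other than the transition apex. How many of all probe sets had either pattern was not counted.

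Other genes of flower, epidermis, leaf and wall biology were read in ap1-15 and ap2-6 from 12 lists chosen with results of these data known. No listed gene was matched to any of the 22 transcripts with 1 annotated gene, and the others could not be matched to the lists. The annotation gives those 22 by locus name, so a listed gene among them could be missed. AT5G33370, listed under epidermis and cuticle by its symbol CUS2, was missed in this way. Overlap with the lists was therefore not tested. The epidermis and cuticle counts below leave out AT5G33370, the GDSL lipase described above, which was low in both mutants. Few listed genes had a probe set with 1 annotated gene. These changes from Col-0 also compare arrays that differed in the dap and thr controls, and the part of that difference was not tested. Across all probe sets, 14% were higher and 13.5% lower in ap1-15 than in Col-0, and 10.2% and 10.5% in ap2-6. Of 3 stomatal lineage genes tested, 3 were lower in ap1-15 and 2 in ap2-6. FAMA, which drives guard cell formation, fell by 0.96 in ap1-15 and 0.68 in ap2-6. STOMAGEN, a peptide that promotes stomata and was left out of the selection by name, fell by 1.26 and 0.58. The remaining gene, SPCH, was at -0.75 in ap1-15 and was not called in ap2-6, at 0.29. Of 6 wall loosening and pectin genes tested, 4 were lower and 2 higher in ap1-15, and 3 lower and 1 higher in ap2-6. EXPA8, an expansin, fell by 1.33 and 1.08, and XTH16, a xyloglucan-modifying enzyme, fell by 0.70 and 0.46. EXPA15 fell by 0.29 and 0.34. EXPB3 (0.33) and EXPA4 (0.23) were higher in ap1-15 and not called in ap2-6 (0.02 and -0.18). GH9B8 was lower in ap1-15 (-0.36) and higher in ap2-6 (0.34). Of 2 epidermis and cuticle genes tested, 1 was lower in ap1-15 (FDH, an enzyme of very-long-chain lipid synthesis, at -0.61) and 0 were called in ap2-6, where FDH was at 0.20. Of 2 trichome genes tested, TRY, an inhibitor of trichome fate, was the 1 called, at -0.69 and -0.73. Of 11 nuclear photosynthesis genes tested, 9 were lower in ap1-15 and 1 lower and 2 higher in ap2-6, while 11 were higher in ag-12. Their medians were -0.34, 0.06 and 0.60 in that order. Of 3 floral identity genes tested, AGL24, a MADS-box promoter of flowering, was higher in both (0.78 and 0.72) and UFO was lower in both (-0.65 and -1.62), with 1 more called higher in each.

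The lists of reproductive organs were read for the makeup of the samples. Of 5 carpel and ovule genes tested, 2 were higher and 1 lower in ap1-15 (SPT 0.45, ALC 0.91 and NGA1 -0.99), and 1 higher in ap2-6 (SPT 0.38). The summed signal of the 8 genes of that list with a probe set ran from 348 to 365 in Col-0, 456 to 497 in ap1-15, 391 to 426 in ap2-6 and 287 to 299 in ag-12. Of 3 anther and tapetum genes tested, 0 were called in ap1-15 and 2 higher in ap2-6 (AMS 1.13 and EMS1 0.21), while 2 were lower in ag-12. The summed signal of the 4 of that list with a probe set ran from 327 to 384 in Col-0, 362 to 392.4 in ap1-15, 417 to 455 in ap2-6 and 194 to 224 in ag-12. Most of this sum was EMS1, with means of 317.6 in Col-0, 340.7 in ap1-15 and 368.7 in ap2-6. No listed gene had a signal of 0 on an array. The carpel sum was carried by SPT, with means of 110.8 in Col-0, 154.6 in ap1-15 and 146.3 in ap2-6, and ALC, with 128.5, 249.01 and 145.1. The median change over the 5 tested was -0.24 in ap1-15, 0.16 in ap2-6 and -0.22 in ag-12, and the sum in ufo-1 ran from 290.02 to 308. The part of reproductive organs in the result was not tested. Of the other lists, sepal and petal growth genes had 1 higher and 1 lower of 5 tested in ap1-15 and 1 lower in ap2-6. Polarity genes had 2 lower of 3 in ap1-15 and 1 lower in ap2-6. Jasmonate and defence genes had 2 lower of 3 in ap1-15 and 1 lower in ap2-6, and the 1 cell cycle gene tested was lower in both.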

How the data were processed

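RNA from 42 samples was measured on Affymetrix arrays. Per the submitters' processing notes and the labels, the deposited values are MAS5 signals, an intensity for each probe set, and the values themselves showed the same 2% trimmed mean on all arrays. Further settings of that software are not known from these sources. Rows of the 64 AFFX controls were dropped. Signals were analysed as log2(signal + 8), with no further normalization. limma 3.58.1 in R 4.3.3 fitted group means with eBayes (trend), over 18 arrays of 6 Col-0 organs and over 24 inflorescence arrays, with 12 and 16 residual degrees of freedom. A probe set was tested when at least 3 arrays exceeded the 40th percentile of their own array. Benjamini-Hochberg adjustment ran over all probe sets tested, and a call is an adjusted p below 0.05. The number of arrays limits the precision. Scripts were tested on simulated data.

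The transcripts and the gene lists were chosen with earlier results of these data known. The comparisons of ap1-15 and ap2-6 with Col-0 for the gene lists were added after the design. Genes were named from the platform annotation, in which 13513 probe sets have 1 gene, 503 several and 8730 none. Named in full were the 12 transcripts with the largest gaps, the 3 on each side of the threshold, and up to 6 called transcripts in each direction per comparison. Further named genes were picked by family after their values were seen. Replicate letters did not pair the samples: correlations of same-letter deviations ran from -0.07 to 0.10, and no comparison had all 3 above 0.1. Alternatives changed the normalization, offset, filter, variance model, arrays in the fit, reference, probe sets and replicates. No sequences are given.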

Additional observations from a re-analysis of the deposited data

How the results depend on the processing

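Restricting the test to probe sets with 1 gene left 20 or 21 of the transcripts tested, and the numbers called fell with it: 14 for the transition apex, 14 for young leaves, 19 for hypocotyl, 7 for the internode, 8 between ap1-15 and ap2-6, 17 in clv3-7, 13 in lfy-12, 6 in ap3-6, 17 in ag-12 and 2 in ufo-1. The direction of the split held in ag-12 (16 higher, 1 lower) and clv3-7 (1 higher, 16 lower). In ap3-6 the split turned with median scaling (16 called, 9 higher). In ufo-1 it turned with quantile normalization (9 called, 4 higher), with all 42 arrays in the fit (9 called, 4 higher) and against the mean of the other 4 mutants (12 called, 4 higher). The cause was not tested. With 1 array left out, 8 to 11 were called in ap3-6, the fewest without ap3-6 replicate A, and 5 to 11 in ufo-1, where the split turned without Col-0 replicate C and without ufo-1 replicate A. With the replicate letter as a replicate block, 34 were called in ag-12 and 30 in clv3-7, and no count moved by more than 1.5 times. The selection gave 24 probe sets with an offset of 32 and 22 with 1 gene each, 47 to 68 under the other settings that change the values, and 47 to 55 with 1 array left out. Of the 53, 34 met it whichever array was left out. The split was even in ufo-1 with an offset of 32 (5 and 5), without Col-0 replicate B (4 and 4), without ufo-1 replicate B (3 and 3), without ufo-1 replicate C (4 and 4) and with 1 gene each (1 and 1), for the transition apex with a 60th percentile filter (15 and 15) and for the internode with median scaling (13 and 13). The rest of the settings kept the direction of the split and, apart from the counts named above, stayed within 1.5 times the count. Dim probe sets limit the comparison of ap1-15 with ap2-6.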
